A study of Arabidopsis thaliana with 10 samples.

Results

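The H3K27me3 loops described here are those that joined anchors on different chromosomes or anchors on 1 chromosome at least 1 Mb apart. They are called long-range loops below. The members were chosen by the chromosome type and the measured span that the deposited H3K27me3 list gives for each loop, and 2222 of its 6310 loops met the rule (35.2%, 95% interval 34.0 to 36.4). Of these, 1290 joined different chromosomes (interchromosomal loops) and 932 lay within a chromosome (megabase loops). The lists of all 5 antibodies together hold 59276 loops. Since span and chromosome type chose the members, both are given only as a description.

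The data are ChIA-PET maps of shoots of wild-type *Arabidopsis thaliana* (accession Col-0) taken 2 weeks after sowing and cross-linked with EGS and formaldehyde. In ChIA-PET, chromatin is pulled down with an antibody, DNA ends held close together are ligated, and each ligated pair is sequenced as a paired-end tag (PET). A loop is a pair of anchors joined by more PETs than the caller's model gives. An anchor is a ChIP-seq peak of the same mark that ends at least 1 loop of the deposited list. Peaks without a loop are not anchors here, so a gene at no H3K27me3 anchor may still carry the mark. The 10 samples were 2 labelled replicates for each of 5 antibodies (H3K4me3, RNAPII, H3K4me1, H3K27me3 and H3K9me2), and each deposited list pools the replicates of 1 antibody. No values per replicate entered any number here, the shoots mixed all their cell types, and no control library is among the samples. All 23 nuclear photosynthesis genes examined lay at anchors of the H3K4me3, RNAPII or H3K4me1 lists and 0 lay at an H3K27me3 anchor. These genes were chosen as a list outside Polycomb control. Ribosomal protein genes were also often at anchors of those 3 lists (272 of 344), so the counts are no check of the tissue.

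H3K27me3 is deposited by Polycomb repressive complex 2 and marks genes that are kept silent in a given tissue. In plants it covers many regulators of flowering, meristems, seeds and cell fate, often as a domain over the whole gene. Domains with this mark can contact each other inside the nucleus, and in plants short DNA motifs such as the telobox and GA repeats are known to recruit the complex to its targets.

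Sequences at named ends of long-range loops show what such DNA looks like here. They were read from the TAIR10.1 genome of NCBI RefSeq, overlap no annotated gene, and are given 5′ to 3′. The AP1 sequence is the 300 bases before the transcription start, on the minus strand at chr1:25986350-25986649. The others are 150-base windows of the plus strand, each centred on a motif match and, among the gene-free windows of that kind in the anchor, the one with the most kinds of motif and then the most matches: chr4:17691410-17691559 for SHR, chr4:6242478-6242627 for STK, chr5:5616751-5616900 in the anchor that joined FLC, chr1:17238732-17238881 for WOX4, chr3:7316433-7316582 for WIP4, chr5:5441570-5441719 for MYB43 and chr3:7358652-7358801 for LCR56. Capitals mark the telobox AAACCCTA and the GA repeat GAGAGAGA on either strand, so that TAGGGTTT and TCTCTCTC are matches to the same motifs.
AP1 upstream: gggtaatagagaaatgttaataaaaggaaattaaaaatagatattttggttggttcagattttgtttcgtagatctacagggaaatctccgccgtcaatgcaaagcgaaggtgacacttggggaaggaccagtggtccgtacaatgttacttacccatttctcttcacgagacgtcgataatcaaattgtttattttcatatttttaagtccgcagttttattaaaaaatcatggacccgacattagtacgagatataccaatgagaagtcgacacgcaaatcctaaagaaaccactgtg
SHR anchor: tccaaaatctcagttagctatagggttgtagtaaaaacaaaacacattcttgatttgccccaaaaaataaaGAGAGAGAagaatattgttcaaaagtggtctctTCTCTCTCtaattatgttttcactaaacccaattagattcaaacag
STK anchor: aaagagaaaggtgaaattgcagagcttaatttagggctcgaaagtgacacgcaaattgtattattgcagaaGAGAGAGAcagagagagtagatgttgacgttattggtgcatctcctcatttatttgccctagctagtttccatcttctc
FLC partner anchor: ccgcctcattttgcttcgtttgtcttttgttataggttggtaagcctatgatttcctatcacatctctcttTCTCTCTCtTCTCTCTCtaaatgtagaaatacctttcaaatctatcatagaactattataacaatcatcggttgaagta
WOX4 anchor: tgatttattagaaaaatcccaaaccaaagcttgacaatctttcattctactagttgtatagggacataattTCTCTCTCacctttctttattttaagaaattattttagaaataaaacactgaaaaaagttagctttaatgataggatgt
WIP4 anchor: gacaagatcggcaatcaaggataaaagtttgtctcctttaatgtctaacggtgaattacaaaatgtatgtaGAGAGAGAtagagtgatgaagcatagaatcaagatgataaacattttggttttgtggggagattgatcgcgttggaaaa
MYB43 anchor: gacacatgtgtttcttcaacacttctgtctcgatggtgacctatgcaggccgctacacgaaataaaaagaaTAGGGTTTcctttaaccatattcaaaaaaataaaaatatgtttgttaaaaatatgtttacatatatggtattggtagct
LCR56 anchor: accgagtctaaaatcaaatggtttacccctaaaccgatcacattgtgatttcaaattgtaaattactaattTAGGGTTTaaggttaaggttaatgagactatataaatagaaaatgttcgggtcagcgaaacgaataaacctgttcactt
The AP1 stretch is shown because the AP1 anchor ended 14 long-range loops. These letters hold neither motif, as was so for all 10 upstream stretches read for named genes, while the whole AP1 anchor held 2 teloboxes and 0 GA repeats. SHR was joined to AP1, WOX4 to WIP4 and STK to a chromosome 3 gene cluster. As a background, 1.99% of all 150-base tiles of the nuclear genome held a telobox and 2.40% a GA repeat.

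Long-range loops were supported by few PETs. The interchromosomal loops had a median of 8 PETs (range 7 to 35) and the megabase loops a median of 6 (range 5 to 40), against a median of 8 and a maximum of 485 for H3K27me3 loops of 20 kb to 1 Mb. The deposited minimum was 7 PETs between chromosomes and 5 within them, and 34.5% of interchromosomal and 40.6% of megabase loops sat at their minimum. At a common minimum of 7 PETs the 351 remaining megabase loops also had a median of 8 PETs, and the 896 loops of 20 kb to 1 Mb a median of 11. Loops with 20 PETs or more numbered 11 between chromosomes and 10 of megabase span, out of 1020 in the whole list.

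The false discovery rate (FDR) that the caller gave to each loop spread over the whole range up to its limit of 0.05. Its median was 0.0313 (95% interval 0.0300 to 0.0327) for interchromosomal loops, 0.0301 (0.0283 to 0.0321) for megabase loops and 0.00107 (0.00066 to 0.00167) for loops of 20 kb to 1 Mb. An FDR below 0.001 was reached by 29 interchromosomal loops (2.25%), 31 megabase loops (3.33%) and 680 of the 1367 loops of 20 kb to 1 Mb (49.7%). Long-range loops thus made up 35.2% of the list but 1.85% (1.41 to 2.37) of its 3245 loops with an FDR below 0.001. The intervals are exact binomial or order-statistic intervals, and they cover counting error only.

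**Figure D1:**
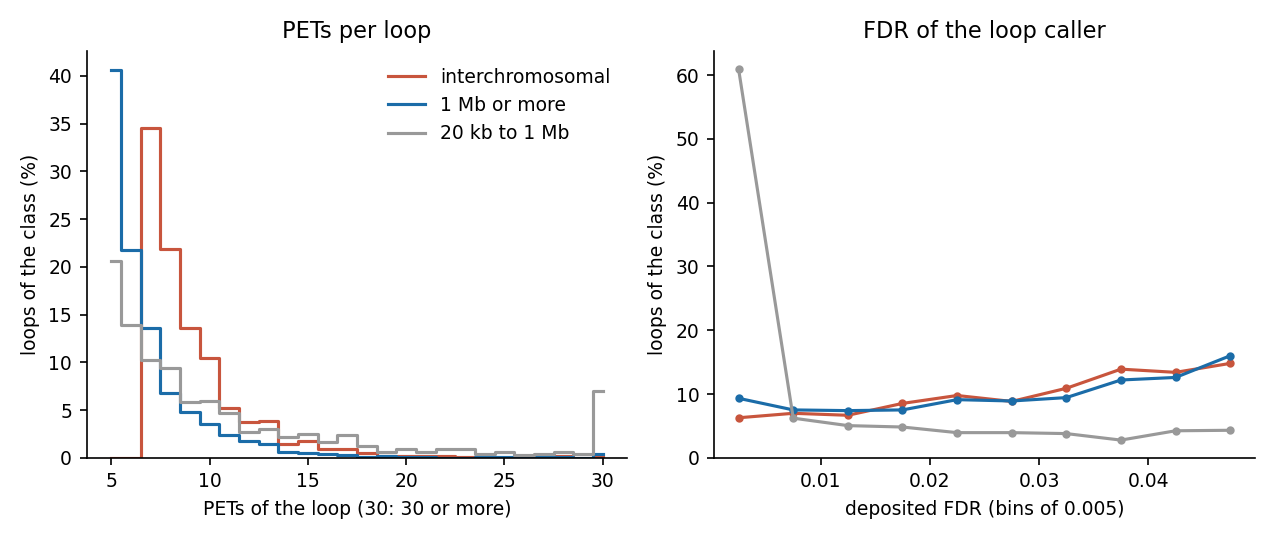
Share of loops (%) by PETs per loop (left) and by deposited FDR in bins of 0.005 (right) for interchromosomal loops (red), loops of 1 Mb or more (blue) and loops of 20 kb to 1 Mb (grey), all H3K27me3. The long-range classes pile up at 5 to 8 PETs and their FDR spreads up to 0.05, with medians of 0.0313 and 0.0301, while 49.7% of the grey class has an FDR below 0.001.

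The long-range loops with the most PETs did not have the lowest FDR. PETs followed the tags at the ends: across loops, the PET count and the geometric mean of the tags of both anchors had Spearman's rho of 0.88 over 1290 interchromosomal loops and 0.86 over 932 megabase loops. Both measures passed the same caller, and loops share anchors, so this is a description. The strongest interchromosomal loop had 35 PETs and joined a cluster of receptor-like kinase and cysteine-rich secretory protein genes (AT3G21940 to AT3G22000, chr3:7723998-7752851) with STK, a MADS-box gene of ovule identity (chr4:6234035-6245233), with an FDR of 0.0386. The cluster held the most tags of any anchor (24110). BRC1, which keeps axillary buds dormant, was joined to the anchor of AT1G05280, AT1G05290 and AT1G05291 on chromosome 1 with 28 PETs (FDR 0.0370). A root-hair regulator, RHD6, was joined to 3 peroxidase genes on chromosome 5 (AT5G64100, AT5G64110, AT5G64120) with 22 PETs. WOX11, which acts in root founder cells, was joined to SAP, a flower and ovule regulator, with 21.

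Among megabase loops the 2 with the most PETs ended at 1 anchor on chromosome 4 that covers WRKY31 and 4 other genes (chr4:11681446-11706661). It was joined over 2.76 Mb to a cluster of glutaredoxin genes around AT4G15660 with 40 PETs (FDR 0.0463) and over 4.28 Mb to the AZI1 and EARLI1 cluster of lipid-transfer-like proteins with 36 PETs (FDR 0.0460). TCP12, a branching regulator, was joined over 6.49 Mb to the MBP1 anchor with 32 PETs (FDR 0.0227). FLC, the repressor of flowering that Polycomb silences after cold, was joined over 2.45 Mb to a cystatin-like gene cluster, AT5G17080 to AT5G17120 (chr5:5616333-5631014), with 31 PETs. Its FDR of 0.00519 was the lowest among the 10 megabase loops with the most PETs.

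The loops of lowest FDR, picked after their values were seen, had few PETs at anchors with fewer tags. The 60 long-range loops with an FDR below 0.001 had 5 to 17 PETs (median 7), and the end with fewer tags had a median of 1347 tags, against 2872.5 over all long-range loops. The lowest FDR between chromosomes, 2.55e-07, belonged to a loop of 7 PETs between IRX15 and MYB43 (1216 and 1785 tags). IRX15 is a gene of xylan synthesis in secondary walls, and MYB43 is a secondary-wall regulator. WOX4, which maintains the vascular cambium, and WIP4, a zinc-finger gene of root formation, were joined by 9 PETs with an FDR of 6.28e-05. The lowest FDR of a megabase loop, 1.16e-08, came with 7 PETs between the cluster AT5G05020 to AT5G05070 and P5CR, a proline synthesis gene whose anchor held 114 tags.

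Megabase loops had a median span of 6.92 Mb (6.47 to 7.60) and reached 28.1 Mb. Just inside the threshold lay a loop of 1012 kb from RSL2 to RL3 with 7 PETs and a loop of 1016 kb from AT1G51870 to NAC020 with 5 PETs. Just outside lay a loop of 996.7 kb from AT1G22910 to CAL with 6 PETs and a loop of 975.3 kb from the peroxidase cluster of chromosome 5 to HB53 with 13. The longest loop with at least 10 PETs joined PTL, a gene of petal and sepal shape, to TCP5 over 23.6 Mb with 10 PETs.

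To relate the loops to the number of anchor pairs, all pairs of the 3171 H3K27me3 anchors were counted by distance. Peaks without any loop are not among these anchors. The values below are thus per pair of anchors and not per pair of peaks that the caller was given. Loops of 7 or more PETs fell from 1550 per 10000 possible pairs at 20 to 50 kb (95% interval 1430 to 1670) to 7.08 (4.91 to 9.90) at 0.5 to 1 Mb and 5.98 (4.48 to 7.82) at 1 to 2 Mb. From there the values stayed close together, with 3.48 (2.74 to 4.35) at 2 to 5 Mb, 3.26 (2.62 to 4.02) at 5 to 10 Mb, 3.15 (2.57 to 3.82) at 10 to 20 Mb and 4.41 (3.00 to 6.26) at 20 to 31 Mb. Pairs on different chromosomes gave 3.26 (3.09 to 3.45), which lies inside the interval of every bin beyond 2 Mb. Over all megabase distances the value was 3.6 (3.23 to 4.0). With the deposited minimum of 5 PETs the megabase value was 9.56, 2.93 times the interchromosomal one, and at 7 PETs the ratio was 1.1.

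**Figure D2:**
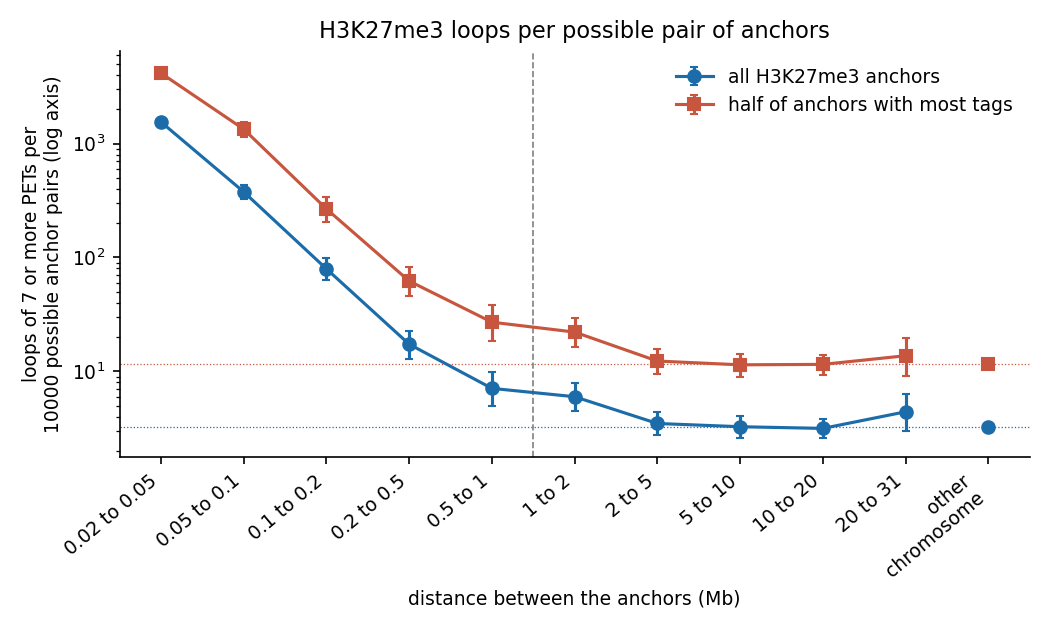
H3K27me3 loops of 7 or more PETs per 10000 possible pairs of anchors (log axis) against the distance between the anchors in Mb, for all 3171 anchors (blue circles) and for the better-covered 0.5 of them, those with the most tags (red squares). Bars are 95% exact binomial intervals, dotted lines mark the value between chromosomes, and the dashed line marks 1 Mb. Beyond 2 Mb the points lie along the interchromosomal value.

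The better-covered 0.5 of the anchors, those with the most tags, had higher values in the same shape: 22.1 at 1 to 2 Mb, 12.3 at 2 to 5 Mb, 11.4 at 5 to 10 Mb and 11.7 between chromosomes. At a common minimum of 8 PETs, the H3K27me3 value between chromosomes, 2.14, also lay inside the interval of every bin beyond 2 Mb. In the other lists some bins lay above the value between chromosomes. RNAPII gave 5.21 (4.56 to 5.93) at 2 to 5 Mb and 5.63 (4.73 to 6.66) at 20 to 31 Mb, against 4.09 between chromosomes. H3K4me1 gave 2.14 (1.85 to 2.45) at 2 to 5 Mb against 1.73, and H3K4me3 gave 0.503 (0.379 to 0.655) at 20 to 31 Mb against 0.341. The remaining bins of these lists beyond 2 Mb had intervals that included the value between chromosomes. The H3K27me3 bins hold fewer loops, 17 to 71 against 55 to 276, and their intervals are wider for it, so a difference from the other lists is not shown. Levels are not comparable across lists, since depth and the number of anchors differ.

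The 10 pairs of chromosomes contributed between 83 loops (chromosomes 2 and 4) and 224 loops (1 and 5), which followed their numbers of anchors. Per 10000 possible pairs the values ran from 2.63 (2.18 to 3.14) for chromosomes 1 and 2 to 3.56 (2.89 to 4.34) for 3 and 4, around the overall 3.26. Only the interval for chromosomes 1 and 2 left out that value. Within chromosomes the deposited megabase loops ran from 8.64 per 10000 pairs on chromosome 1 (342 loops) to 12.6 on chromosome 4 (126 loops). Of the 80 loops of 20 Mb or more, 52 were on chromosome 1, 24 on chromosome 5 and 4 on chromosome 3. Chromosomes 2 and 4 are shorter than 20 Mb and could hold none. These counts depend on chromosome length and were not set against possible pairs.

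**Figure D3:**
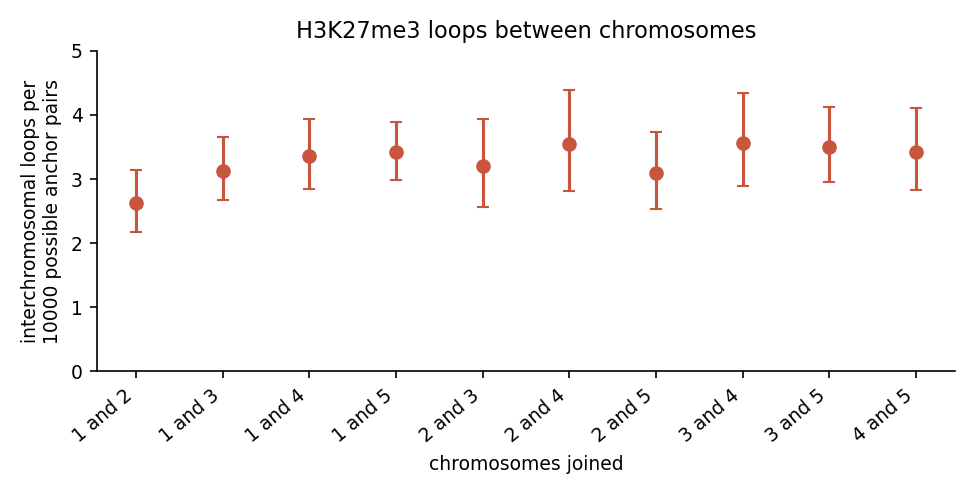
Interchromosomal H3K27me3 loops per 10000 possible pairs of anchors for each pair of chromosomes, with 95% exact binomial intervals. Values run from 2.63 to 3.56 and all intervals but that of chromosomes 1 and 2 include the overall value of 3.26.

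Position along the arms differed little from that of all possible pairs. With each end placed between 0 at the centromere and 1 at the chromosome end, the ends of interchromosomal loops differed by a median of 0.243 (0.227 to 0.262), and all possible pairs of long-range anchors on different chromosomes differed by a median of 0.250. Weighted by the number of loops at each anchor the latter was 0.247. The centromere was crossed by 390 of the 932 megabase loops (41.8%, 38.7 to 45.1), and 48.4% of the possible pairs of these anchors at least 1 Mb apart lay on both sides of it. The spans of these pairs were not matched to those of the loops.

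Long-range loops used 1686 of the 3171 anchors (53.2%), and 289 of these (17.1%) had no other kind of H3K27me3 loop. Of the 1686 anchors, 715 ended 1 long-range loop, 264 ended 5 or more and 30 ended 10 or more, up to 14. They carried a median of 2961 tags and were 4619.5 bp wide at the median, against 772 tags and 2011 bp for the 1485 anchors without a long-range loop. When anchors were split into quartiles by tags, 7.45% of the lowest quartile had a long-range loop, 39.7% of the second, 70.0% of the third and 95.5% (93.8 to 96.8) of the highest. The highest quartile was at one or both ends of 97.0% of long-range loops and of 88.9% of loops of 20 kb to 1 Mb. Between chromosomes, anchors of the highest quartile gave 27.2 loops per 10000 possible pairs among themselves, and anchors of the lowest quartile gave 0 loops in 246487 pairs. The number of long-range loops and the tags of an anchor had Spearman's rho of 0.77 over 3171 anchors, and tags and width had 0.94. A loop needs a minimum of PETs, so an anchor with few tags had less chance to reach it, and the parts of tags, width and contact in these counts were not separated.

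**Figure D4:**
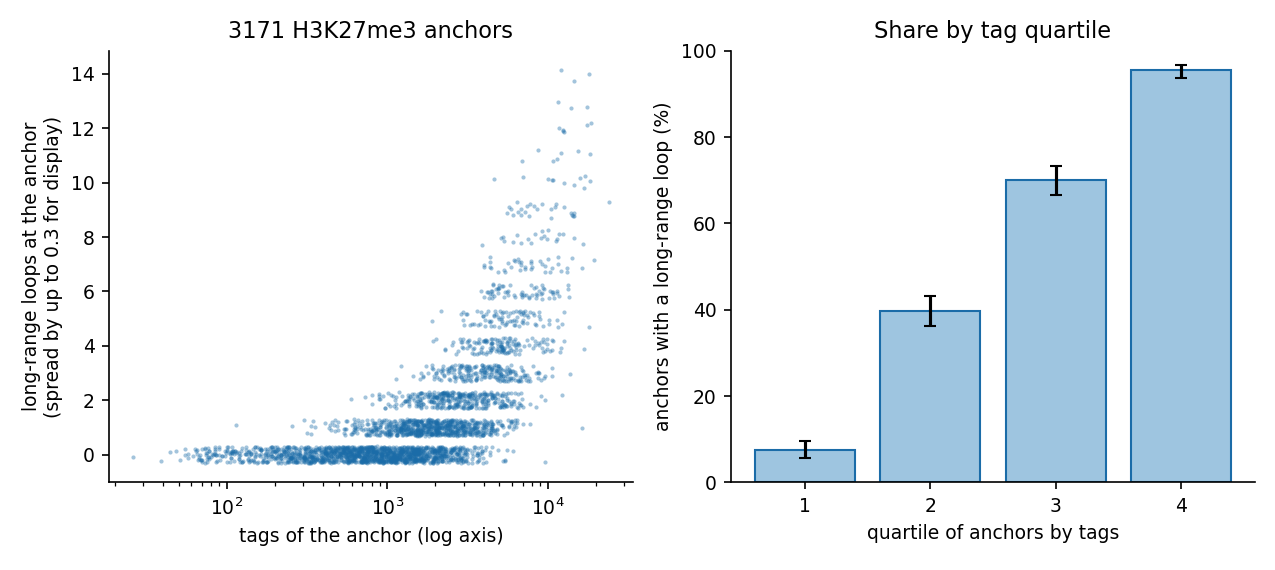
Left, long-range loops at each of the 3171 H3K27me3 anchors against its tags (log axis; points are spread vertically for display). Right, share of anchors (%) with at least 1 long-range loop in each quartile by tags, with 95% exact binomial intervals, rising from 7.45% to 95.5%.

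The 10 anchors with the most long-range loops ended 12 to 14 each and together touched 129 loops (5.81%). All of them were large, with 11551 to 18704 tags, which put them between the ranks of 3 and 54 among all anchors. They reached 129 other anchors, so that none of the 10 was joined to another of the 10 and no 2 of them met at the same other anchor. Anchors of the highest tag quartile gave 27.2 interchromosomal loops per 10000 possible pairs. Since 10 anchors form few pairs, 0 loops among them is no sign of avoidance. The limit at 10 divided 6 anchors that ended 12 loops each. With the other two of these, the CUC2 anchor and the NF-YC5 to NF-YC7 anchor, 12 anchors touched 153 loops, still with 0 loops among themselves, and 2 of the 151 anchors they reached were then shared: NST1 and CUC2 both joined the TPS21 anchor, and the LCR56 and NF-YC anchors both joined AT5G53486. The AP1 anchor (chr1:25974811-25988611, 13.8 kb) had 14 loops, 5 between chromosomes and 9 of megabase span, with 5 to 16 PETs. AP1 specifies floral meristems and sepals and petals. Its strongest partners were SHR, a regulator of root patterning, with 16 PETs, the anchor of AT1G66210 and AT1G66220 with 16, FEZ, a root-cap NAC gene, with 15 over 16.7 Mb, and EXPA18, a root-hair expansin, with 13.

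The anchor of LCR55 and LCR56, small cysteine-rich proteins (chr3:7353836-7374458), also had 14 loops, among them 28 PETs to BHLH32 over 2.0 Mb and 15 PETs to KAN, a regulator of abaxial leaf fate. The anchor of MYB79 had 14 loops, 13 of them between chromosomes and spread over the 4 other chromosomes, with 7 to 13 PETs. AS2, which acts in leaf polarity, had 13 loops with 7 to 11 PETs, including BLH8 and IAA7 with 11 each. NST1, which switches on secondary walls, had 12, the strongest to ASL1 with 16 PETs, and its loop to CYP78A8 had the lowest FDR of its 12 (9.7e-05, 9 PETs). The anchor of CRU3, a seed storage protein, and NAC074 had 12 loops, and so did the TCP12 anchor, while RALFL15 with its neighbours had 13. The other two were clusters of chromosome 5 that start at AT5G22150 (13 loops) and at AT5G17080 (12 loops).

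As a network, the long-range loops were sparse. Their largest connected set held 1635 of the 1686 anchors, yet of 7761 pairs of loops that met at an anchor 0.116% were closed by a loop between their far ends, which makes 3 triangles. The values were 0.925% (185 triangles) in the long-range loops of the H3K4me3 list, 0.891% (590) for RNAPII and 0.206% (50) for H3K4me1. The busiest anchor ended 14 loops here, 81 in H3K4me3, 188 in RNAPII and 111 in H3K4me1, and the 10 busiest touched 5.81%, 13.4%, 9.50% and 11.6% of the loops. These lists differ in depth, in PET minimum and in anchors, whose part in the differences was not tested.

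One triangle held LFY, the floral meristem regulator, on chromosome 5, with AT5G13250 on the same chromosome (10 PETs), and AT3G25790, a myb-like gene on chromosome 3 (9 PETs), which were joined to each other by 20 PETs. Another joined EXPA7 to the cluster AT1G51240 to AT1G51300 (12 PETs) and to AT3G55513 (8 PETs), whose own loop had 19. Parallel loops were as rare. Only 34 long-range loops (1.53%) had another whose ends both lay within 50 kb of theirs, in 17 pairs, against 9.27% for H3K4me3, 7.21% for RNAPII and 5.47% for H3K4me1. One pair ran between the cytochrome P450 and triterpene synthase genes of chromosome 4 (CYP705A1, PEN1 and CYP705A2, and next to them CYP705A3, BARS1 and CYP705A4) and the region around AT4G19910, with 12 and 27 PETs. In another the anchors of AT5G03810 and TFL1 both joined AT4G13600 and MEE57, with 10 and 9 PETs.

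A gene was placed at an anchor where gene body plus promoter and anchor shared at least 0.5 of the length of either. By this rule 9.29% of the 27444 protein-coding genes lay at an anchor of a long-range loop, 13.9% at any H3K27me3 anchor, and 66.9% of the latter were thus also at a long-range loop. In the highest tag quartile that share was 96.3%. Shares among genes at an H3K27me3 anchor are in part set by the definition, since a long-range loop alone makes a peak an anchor. This was so for 289 of the 1686 long-range anchors. Counts on lists below are to be read against these shares. The lists were chosen with earlier results of these data known, so high counts on them are a description only. Genes at 1 anchor share its loops. The counts rest on loops of modest FDR: with only loops below an FDR of 0.01, 892 genes in place of 2549 were at a long-range loop, and 4 of 16 floral identity genes and 4 of 16 meristem genes.

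Floral identity genes were nearly all included. Of 16 genes, 15 lay at an H3K27me3 anchor and 14 at a long-range loop, and 10 were in the highest tag quartile. AP1 had 14 loops, STK 9, SEP3 9 and AG 8. AG, which specifies stamens and carpels, had 5 to 12 PETs in its loops, the strongest to RGF7, a root growth factor gene on chromosome 3. SEP3, a cofactor of all floral organ genes, was joined to CRC, a carpel gene, over 17.4 Mb with 11 PETs, and to MYB26, an anther gene, with 10. LFY had 6 loops with 5 to 10 PETs. SHP2 had 0 long-range loops, and AP3 was at no H3K27me3 anchor.

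On the flowering-time list, picked for known Polycomb or florigen roles, fewer genes were included. Of its 20 genes, 5 lay at an H3K27me3 anchor and all 5 had a long-range loop. VIN3, a Polycomb partner induced by cold, had 7, the strongest over 1.53 Mb to AT5G53486 with 16 PETs and an FDR of 0.000758, and another to MYB46, a secondary-wall regulator, over 19.2 Mb with 12. TFL1, which keeps the shoot tip vegetative, had 6 with 6 to 11 PETs. FLC had 4, all on chromosome 5: besides the one given above, BBM over 2.57 Mb with 12 PETs, AT5G25420 over 5.67 Mb with 11 and AT5G46260 over 15.6 Mb with 6. FT, the florigen gene, had 2, one of 7 PETs to the WRKY35 anchor and one of 5 PETs over 21.2 Mb. SOC1 (AGL20 in the annotation) had 1 of 8 PETs. The FLC relatives MAF1, AGL31 and MAF3 to MAF5 were at no H3K27me3 anchor.

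Shoot meristem and boundary genes were included in 14 of 16 cases, 13 of them in the highest tag quartile. CUC2, which sets organ boundaries, had 12 loops, the strongest to OBP2 with 19 PETs and others to SHP1 (11 PETs) and LFY (5 PETs over 2.94 Mb). TCP12 had 12. STM, which maintains the meristem, had 10, with 18 PETs to AT3G44753 and its neighbours and 16 PETs over 11.2 Mb to NAC012, a secondary-wall NAC gene. BRC1 had 10, of which 9 were interchromosomal. CUC1 and CUC3 were at no H3K27me3 anchor. Of 15 WOX genes, 12 lay at an H3K27me3 anchor and all 12 had a long-range loop. WOX9 (HB-3 in the annotation) had 7, WUS and WOX2 5 each, and WOX11 4. The strongest of WUS, the stem-cell organiser, had 15 PETs and joined IDD16 on chromosome 1.

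Secondary-wall regulators were included in 10 of 13 cases, and all 10 were in the highest tag quartile. NST1 had 12 loops, VND1 10, ANAC026 6 and VND7 6. VND1 and VND7, vessel regulators, were both joined to WOX2, an embryo patterning gene, with 15 and 13 PETs. Embryo and seed genes had 9 of 13, which were all those at an H3K27me3 anchor. The 4 albumin genes SESA1 to SESA4 share 1 anchor with 9 loops, the strongest to DRNL with 16 PETs. ABI3, a seed maturation regulator, had 6, all on chromosome 3, with 15 PETs over 1.24 Mb to LBD25 and OLEO4, an oleosin gene. LEC2 had 4 and FUS3 3.

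Root genes had 10 of 15 (13 were at any H3K27me3 anchor), with 6 each for EXPA18 and SHV2 and 5 each for RHD6 and PLT2. PLT1, with 16434 tags, had 1 long-range loop out of 6 H3K27me3 loops. Leaf polarity genes had 8 of 14 (10 were at any H3K27me3 anchor), led by AS2 with 13 and AFO with 7. ATS was at an anchor of 9596 tags with 0 long-range loops, and AS1, PHB, PHV and REV were at no H3K27me3 anchor. Epidermal genes had 6 of 11 (SPCH 7 loops, GL2 4) and auxin synthesis and transport genes 6 of 20 (YUC2 4 loops). At any H3K27me3 anchor were 7 epidermal and 11 auxin genes. For auxin genes at such an anchor the share with a long-range loop was 54.5%, against 66.9% over all genes. Of 13 genes for Polycomb complex 2 and its partners, 3 had a long-range loop: VIN3 with 7, MEA, an endosperm subunit, with 4, and EMF1 with 1.

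Families were read from the product text. Against the background of 9.29%, long-range loops were found for 37.3% of peroxidases (25 of 67), 34.7% of WRKY genes (25 of 72), 32.9% of MYB genes (49 of 149), 30.4% of homeobox genes (34 of 112), 25.8% of MADS-box genes (31 of 120), 25% of NAC genes (26 of 104), 24.2% of bHLH genes (32 of 132), 24.2% of F-box genes (158 of 652) and 23.4% of cytochrome P450 genes (51 of 218). They were found for 26.5% of expansins (9 of 34), 18.2% of LOB domain genes (6 of 33), 17.4% of TCP genes (4 of 23), 15.3% of glutaredoxin and thioredoxin genes (11 of 72), 14.7% of the AP2, ERF and AP2/B3-like group (10 of 68), 6.61% of protein kinases (34 of 514) and 2.03% of ribosomal protein genes (7 of 344). The shares at any H3K27me3 anchor were 50.7% for peroxidases, 45% for MYB genes, 10.3% for protein kinases and 2.62% for ribosomal proteins. Among genes at an H3K27me3 anchor, 66.9% were at a long-range loop, and by family this share ran from 60.0% (LOB domain) to 86.1% (MADS-box). It was 83.3% for WRKY genes, 73.5% for peroxidases, 73.1% for MYB, 72.1% for F-box and 68.0% for P450 genes. The family shares against 9.29% thus largely followed presence at any H3K27me3 anchor.

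**Figure D5:**
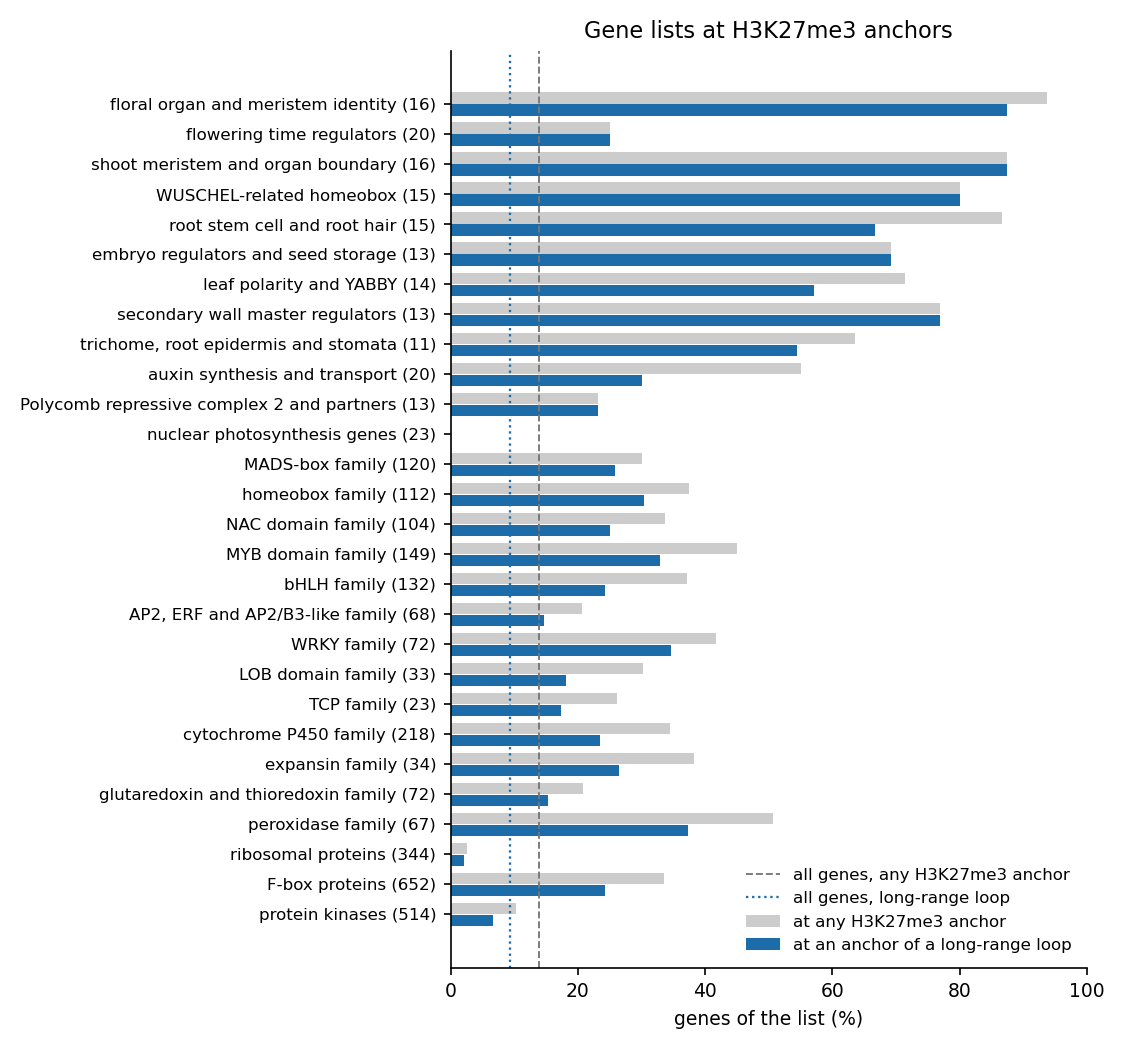
Genes of each list (number of genes in brackets) at any H3K27me3 anchor (grey bars) and at an anchor of a long-range loop (blue bars), in percent of the list. Vertical lines mark the same shares over all 27444 protein-coding genes, 13.9% (dashed) and 9.29% (dotted). Floral identity and meristem genes stand at 87.5%, and photosynthesis genes at 0. The lists were chosen with earlier results of these data known.

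Loops with a listed developmental gene at both ends are given as a count only. The number that independent ends would give was not computed, so the count is not read as low or high. Of the 2222 long-range loops, 386 (17.4%) had a gene of the 11 developmental lists at an end and 14 (0.630%) had one at both ends. In 1 of these 14 (7.14%, 0.181 to 33.9) both genes were of the same list, the loop of SEP3 with CRC, a count too small to set against any other share. The others mixed lists, as in BRC1 with SHV2 (17 PETs), AP1 with SHR (16), STM with NAC012 (16), FLC with BBM (12) and VIN3 with MYB46 (12).

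Transcription factor genes, taken as families by product text, made up 2.96% of all protein-coding genes and 8.51% of the genes at long-range loops (217 of 2549). Among the 3812 genes at any H3K27me3 anchor they numbered 289, a share much closer to that at long-range loops than to that of all genes. At least 1 of them was at 12.4% of long-range anchors (209 of 1686) and at 5.05% of the other H3K27me3 anchors (75 of 1485). Within the highest tag quartile the shares were 17.6% (14.9 to 20.5) of 757 anchors and 19.4% (8.19 to 36) of 36, so that there the intervals overlapped. A transcription factor gene was at 16.6% of the ends of long-range loops. Both ends held one in 42 loops (1.89%, 1.37 to 2.55), while independent ends would give 2.76%. For loops of 20 kb to 1 Mb the values were 1.61% (1.01 to 2.43) and 1.37%. Within families, F-box genes were at both ends of 11 long-range loops where independent ends would give 12, and P450 genes at both ends of 3 where they would give 1.57. For P450 loops of 20 kb to 1 Mb the values were 7 and 1.83. In the other families where independent ends would give more than 1 long-range loop, the counts were lower than that. They were 1 against 2.3 for MYB, 1 against 1.93 for MADS-box, 0 against 1.51 for bHLH, 1 against 1.41 for homeobox and 0 against 1.19 for NAC genes.

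Both motifs had higher shares at long-range anchors, with intervals that overlapped those of the other anchors. In the 300 bp at the anchor centre a telobox was present in 6.41% (5.28 to 7.68) of long-range anchors and in 4.78% (3.75 to 5.99) of the other H3K27me3 anchors, and a GA repeat in 6.29% (5.18 to 7.55) and 4.31% (3.33 to 5.47). Over whole anchors, with overlapping matches counted once, long-range anchors had 20.7 teloboxes per 100 kb, the others 16.7 and the nuclear genome 15.9, and for the GA repeat the values were 21.3, 16.2 and 19.8. In the 300 bp before the transcription start a telobox was held by 8.24% (7.20 to 9.37) of genes at long-range loops, 6.49% (5.20 to 8.00) of genes at other H3K27me3 anchors and 5.21% of all genes. For the GA repeat the shares were 6.59% (5.66 to 7.62), 4.43% (3.37 to 5.72) and 5.72%. Among the sequences shown above, the anchor that joined FLC held 10 teloboxes and 2 GA repeats in all, and FLC's own anchor 0 and 2. At both ends of the loop of WOX4 and WIP4 the window around a GA repeat was centred 622 and 625 bp from the gene start. A match is a description of the letters, and anchors differ in width.

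Anchors of long-range H3K27me3 loops rarely coincided with those of the other lists. An overlap of at least 1 bp was found with an H3K4me3 anchor for 54 of the 1686 (3.20%), with an RNAPII anchor for 108 (6.41%), with an H3K4me1 anchor for 103 (6.11%) and with an H3K9me2 anchor for 11 (0.652%). For H3K27me3 anchors without a long-range loop the shares were 2.76%, 4.51%, 4.78% and 0.0673%. Where the overlap had to cover 0.5 of the smaller anchor, the order turned for H3K4me3 (2.55% of long-range anchors and 2.63% of the others) and RNAPII (3.20% and 3.3%), with 4.69% and 3.57% for H3K4me1 and 0.0593% and 0% for H3K9me2. Both ends lay at an anchor of another list in 2 of the 2222 loops for H3K4me3, 12 for RNAPII, 3 for H3K4me1 and 0 for H3K9me2, so that few could have coincided with a loop of those lists, and 0 did. A protein-coding gene was missing from 134 long-range anchors (7.95%) and from 25.3% of the other H3K27me3 anchors.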

How the data were processed

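As the methods state, the authors pooled replicates, mapped read pairs to TAIR10 with ChIA-PET Tool V3 and kept loops with an FDR below 0.05 between given ChIP-seq peaks. The name of the H3K27me3 list carries 3 library numbers against 2 labelled replicates, and their relation is unknown. Mapping settings are not given in the sources used here. Deposited loop type and span are the caller's. The deposited PET and tag values are raw counts. The deposited FDR, an adjusted p-value, is the caller's own and served only to filter or describe loops. Its unadjusted p-values and logarithms were not used.

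Loops were read with pandas 2.3.3 and numpy 2.4.6. Genes and sequences came from TAIR10.1 (NCBI RefSeq), whose nuclear chromosomes are those of TAIR10. Genes were placed at anchors by the stretch from 1 kb before the start to the gene end. Promoters from 1 kb before to 0.5 kb after the start served only the alternative rule of 1 bp of the promoter. Centromeres were set at the 1 Mb window with the fewest genes, away from the ends. Possible pairs were enumerated over all anchors, which leaves out peaks without a loop. Shares have exact Clopper-Pearson 95% intervals. No test between groups was run, since each list is a single pooled list. The functions were tested on simulated loops. Members and gene lists were chosen with earlier results of these data known. The named genes were the 10 anchors with most long-range loops, the 10 loops of each class with most PETs, the longest loops and up to 4 genes per list with most loops, beside listed genes with none and the loops at the span threshold. Partners, triangles and the loops of lowest FDR fall outside this rule and were chosen after their values were seen. SEP1, SEP2, VND6 and CRC1 did not match a single gene by symbol and were left out.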

Additional observations from a re-analysis of the deposited data

How the results depend on the processing

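No paired analysis was possible because the deposited lists pool the replicates. The share of long-range loops (35.2%) was 34.8% at 7 PETs and 36.3% at a 0.5 Mb span. It was 18.7% at 10 PETs, 8.48% at an FDR below 0.01, 1.85% at an FDR below 0.001, 40.4% without loops inside 1 anchor, 33.3% at 2 Mb and 29.7% at 5 Mb. At 7 PETs the megabase median was 8 PETs and the interchromosomal share of long-range loops 78.6% (58.1% as deposited), and at 10 PETs 76.9%. The 10 busiest anchors touched 7.19% of loops at 7 PETs and 9.15% at an FDR below 0.01. Bundles held 0.180% of loops at 20 kb and 3.69% at 100 kb. At an FDR below 0.01, 892 genes in place of 2549 were at a long-range loop, and 25 of 28 lists changed by more than 1.5 times (floral identity 4 of 16, meristem 4 of 16). With 1 bp of the promoter, 1 list did (ribosomal, 27 genes). Teloboxes were in 10.7% of the central 500 bp and 61.6% of whole anchors, GA repeats in 9.67% and 53.4%, in windows that are longer by construction. Where an overlap had to cover 0.5 of the smaller anchor, overlaps fell to 3.20% (RNAPII), 4.69% (H3K4me1) and 0.0593% (H3K9me2), and for H3K4me3 and RNAPII the long-range anchors were no longer above the other H3K27me3 anchors. Of alternatives chosen after seeing the data, the deposited PET minimum moved the megabase to interchromosomal ratio from 1.1 to 2.93, while 10 PETs gave 1.22 and the better-covered anchors 1.09. Among anchors with at least 12 loops (12 in place of 10), 2 other anchors were shared in place of 0. Low PETs and pooled replicates limit every single loop.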
